A study of Mus musculus with 47 samples.

Results

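Goblet, mucin and trefoil genes were followed in sorted medullary thymic epithelial cells (mTECs) of the mouse. The set holds 10 genes chosen by name as products of mucus-secreting cells: the gel-forming mucins Muc5ac, Muc5b, Muc2 and Muc6, the trefoil factors Tff1, Tff2 and Tff3, and Agr2, Spdef and Fcgbp. These were 10 of the 53402 genes listed for adult mice and 10 of the 55471 listed for neonatal mice. Expression was measured by bulk RNA-seq in 47 libraries from C57BL/6 mice, made with the random-primed RamDA-seq chemistry from cells sorted as DAPI-CD45-EpCAM+Ly51- and split by MHC class II into mTEChi and mTEClo.

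The adult groups were WT mTEChi (n = 7), AireKO mTEChi (n = 4), WT mTEClo (n = 8) and AireKO mTEClo (n = 4). Adult WT mice were 4 or 5 weeks old and adult AireKO mice were 5 or 6 weeks old, and all AireKO adults were male whereas WT adults were of both sexes. In neonates, Ctrl gave 5 mTEChi and 3 mTEClo libraries, EEDcKO gave 3 and 4, AireEEDdKO gave 3 of each fraction, and AireKO gave 3 mTEChi libraries. Neonates ranged from 1 to 6 days of age, and the libraries without Aire were all from mice of 4 or 6 days, 2 of them (AireKO mTEChi replicate 1 and AireEEDdKO mTEChi replicate 1) from pooled mice. Also labelled as pooled were Ctrl mTEChi replicate 5, Ctrl mTEClo replicate 3, EEDcKO mTEChi replicates 2 and 3 and EEDcKO mTEClo replicates 1, 2 and 4. Ctrl mTEClo libraries were all from mice of 1 to 3 days, whereas EEDcKO mTEClo libraries ranged from 1 to 6 days. AireKO mice lack the transcriptional regulator Aire. EEDcKO mice lose Eed, a core subunit of Polycomb repressive complex 2, through a Cre driven by Foxn1, which is active throughout the thymic epithelium and so also in cortical cells and in the progenitors of both sorted fractions. AireEEDdKO mice lack both, and the alleles that Ctrl mice carried are not given in the sources used here.

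Mucus is built from gel-forming mucins, very large glycoproteins that are folded and cross-linked in the secretory pathway and released from goblet, gland and airway secretory cells. Trefoil factors are small peptides secreted with them. Agr2 is a protein disulfide isomerase needed for mucin folding, Spdef is an ETS transcription factor of goblet cell maturation, and Fcgbp is a von Willebrand-domain protein of the mucus layer. In the thymus, mTECs transcribe many genes of peripheral tissues, partly under Aire, and some mTECs take on features of mucosal, tuft, microfold or keratinised epithelium.

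Read counts per library ranged from 1602125 to 3938588 in adults and from 1578579 to 4817418 in neonates. Levels are given as CPM, the count divided by the TMM-scaled library total and multiplied by 1000000. Aire averaged 816 ± 57.6 CPM (mean ± SD, here and below) in adult WT mTEChi and 28.4 ± 11.2 in AireKO mTEChi, and 613 ± 153 and 70.0 ± 38.4 in neonatal Ctrl and AireKO mTEChi. Eed averaged 28.9 ± 7.86 CPM in neonatal Ctrl mTEChi and 14.7 ± 4.59 in EEDcKO mTEChi. All 4 adult AireKO mTEChi libraries and 2 of the 4 adult AireKO mTEClo libraries held no count for any of 37 mitochondrial genes, so genotype and this difference between libraries cannot be told apart in adult mTEChi. The neonatal mTEClo Ctrl libraries had summed cortical TEC markers (Psmb11, Prss16, Ly75 and Ctsl) of 1616 to 2478 CPM, against 344 to 752 in EEDcKO and 353 to 378 in AireEEDdKO, and their part in the mTEClo comparisons was not tested. In bulk samples, fewer cells of a type and less RNA per cell cannot be told apart. Nothing in the labels says that libraries of a group came from separate mice, and p-values measure the spread between these libraries.

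Of the 10 genes, 7 lie in a pair of clusters (GRCm38 coordinates, GENCODE annotation). Muc6 (chr7:141633456-141655319, minus strand), Muc2 (chr7:141690340-141754693), Muc5ac (chr7:141788972-141819231) and Muc5b (chr7:141839070-141873084) follow each other over 239.629 kb, the last 3 on the plus strand. Tff3 (chr17:31125306-31129646), Tff2 (chr17:31141049-31144282) and Tff1 (chr17:31161395-31165277) lie within 39.972 kb, all on the minus strand. Fcgbp (chr7:28071236-28120862, plus strand), Agr2 (chr12:35992907-36004087, plus strand) and Spdef (chr17:27714352-27728955, minus strand) stand alone.

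RefSeq promoter sequences of the same build, from 250 bases before to 50 bases after the start, were matched for 5 of the 10 genes. The promoters of Muc2, Muc6 and Fcgbp are shown because they hold the same short A/T motif at the same distance from the start, although Muc2 and Muc6 fell without Aire in adult mTEChi and Fcgbp did not. They are written 5′ to 3′ on the strand of the gene, with every match to a searched motif, on either strand, in capitals.
Muc2 (chr7:141690090-141690389, plus strand): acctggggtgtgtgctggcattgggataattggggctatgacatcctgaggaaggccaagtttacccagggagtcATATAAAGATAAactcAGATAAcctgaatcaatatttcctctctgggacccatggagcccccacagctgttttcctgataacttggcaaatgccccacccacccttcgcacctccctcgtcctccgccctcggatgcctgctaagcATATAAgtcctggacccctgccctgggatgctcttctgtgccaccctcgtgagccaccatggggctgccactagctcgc
Muc6 (chr7:141655344-141655643, minus strand): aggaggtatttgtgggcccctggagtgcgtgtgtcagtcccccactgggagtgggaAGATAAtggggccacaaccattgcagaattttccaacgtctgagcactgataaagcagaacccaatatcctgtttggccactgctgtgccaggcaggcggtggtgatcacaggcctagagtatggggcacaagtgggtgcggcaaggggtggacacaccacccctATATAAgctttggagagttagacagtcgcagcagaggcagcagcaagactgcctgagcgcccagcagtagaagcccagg
Fcgbp (chr7:28070986-28071285, plus strand): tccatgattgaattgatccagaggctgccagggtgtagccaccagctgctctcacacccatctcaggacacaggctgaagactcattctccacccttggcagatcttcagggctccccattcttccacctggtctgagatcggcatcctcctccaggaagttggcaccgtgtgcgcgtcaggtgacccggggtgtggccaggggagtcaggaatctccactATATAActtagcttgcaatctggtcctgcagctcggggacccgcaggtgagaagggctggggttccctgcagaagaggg
The motifs searched were TATAAA, its variant ATATAA, the GATA-type AGATAA, the forkhead-type TGTTTAC and the ETS-type CCGGAT, each on both strands. In each of the 3 promoters the first base of ATATAA was 29 bases before the start on the strand of the gene, a place at which 0.231% of the 32851 promoters in the table hold it, and Muc2 holds a further match. ATATAA anywhere in the window was found in 9.82% of promoters, TATAAA in 13.6%, AGATAA in 11.2%, TGTTTAC in 3.65% and CCGGAT in 6.04%. Agr2 and Spdef held none of the 5 motifs. ATATAA was added to the search after these sequences had been read, and a match is a string of letters and not a measured binding site.

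Fcgbp was by far the most abundant of the 10 genes. Per kilobase of exon, its level in adult WT mTEChi was 259 RPKM, the CPM divided by the exon length in kilobases, followed by Tff3 at 34.3, Muc5ac at 30.4, Tff2 at 18.7, Muc2 at 16.3, Muc6 at 9.17 and Muc5b at 3.48. In adult WT mTEClo Fcgbp was at 258 RPKM, followed by Muc5b at 14.2 and Muc5ac at 7.27. By mean CPM, Fcgbp was first of the 10 in 10 of the 11 groups. The exception was neonatal EEDcKO mTEClo, where Muc5b had the higher mean CPM. Per kilobase of exon Fcgbp was first there too, with Muc5b next at 67.2 RPKM. Among all genes, Fcgbp ranked 1 to 3 by count in every adult library and 2 to 138 in the neonatal ones.

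**Figure D1:**
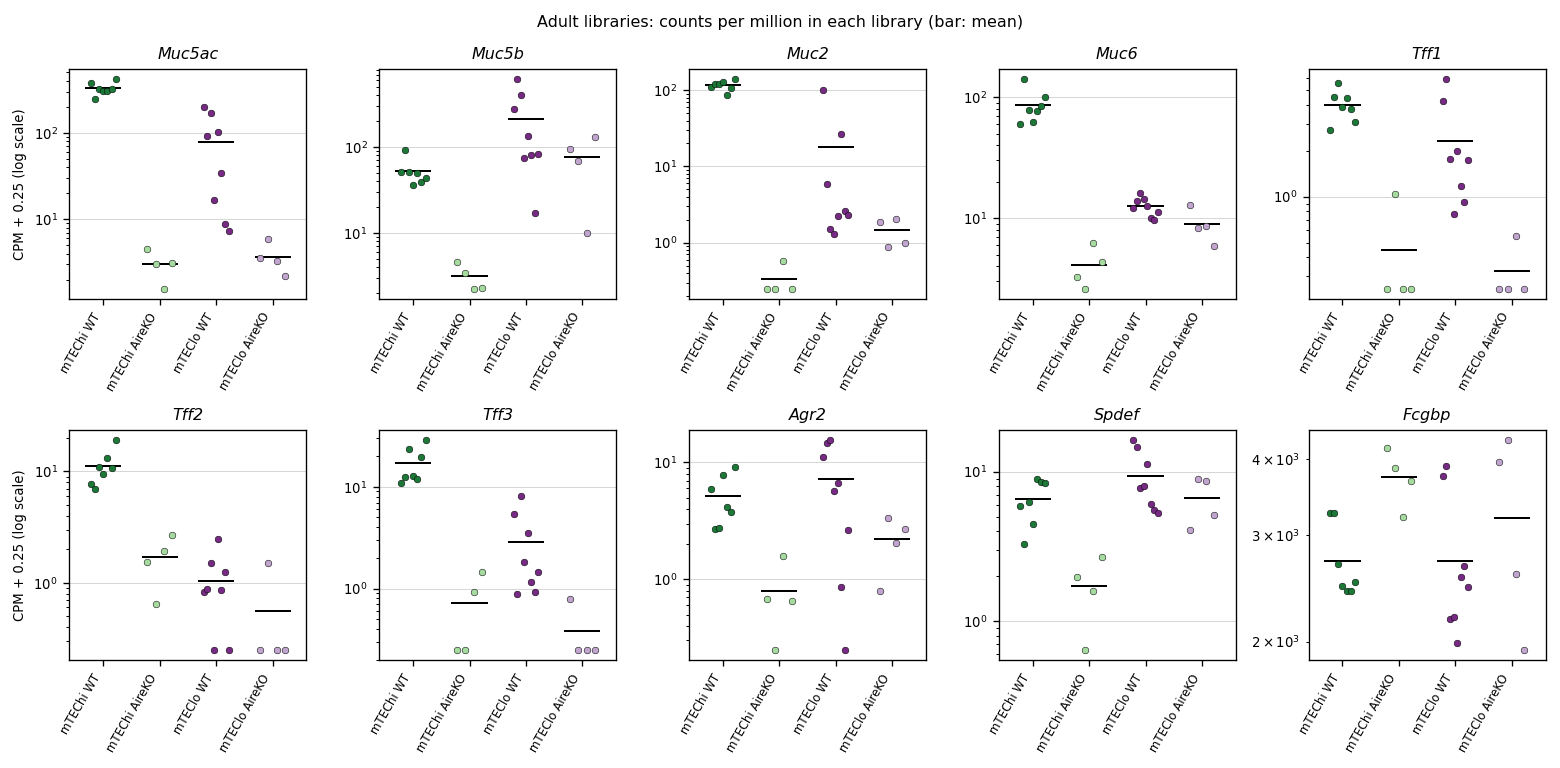
Level of each of the 10 genes in each adult library, in CPM plus 0.25 on a log axis, with points for libraries and a bar for the group mean. In mTEChi, Muc5ac is at 248 to 416 CPM in WT and at 1.33 to 4.28 CPM in AireKO, while Fcgbp stays between 2424 and 4171 CPM.

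In adult mTEChi, 9 of the 10 genes fell in AireKO and Fcgbp did not. Changes were tested with edgeR's quasi-likelihood test across 19310 genes, with Benjamini-Hochberg adjustment over all of them, and a gene was called when its adjusted p was under 0.05 and its change at least 2-fold. In this comparison 23.4% of the genes tested were called, 18.3% lower and 5.09% higher. The 10 genes were chosen with earlier results of these data known, so their share is set beside this background as a description only.

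Muc5ac, the surface mucin of stomach and airway, was between 248 and 416 CPM in the 7 WT mTEChi libraries, with a median of 318. In the 4 AireKO libraries it was 4.28, 2.77, 1.33 and 2.84 CPM. Its fitted log2 change was -6.89 ± 0.84 (SE, here and below; adjusted p = 1.03e-07), the summed counts being 6109 in WT and 28 in AireKO. Muc2, the main mucin of intestinal goblet cells, ranged from 86.2 to 139 CPM in WT with a median of 119. It had no count in 3 of the 4 AireKO libraries and a single count in the other. The ratio of WT to AireKO counts per read was 1194, with an exact 95% interval, covering counting error only, of 214 to 47167 (adjusted p = 2.51e-06). Muc2 thus had 1 count in all AireKO libraries together and 2159 in all WT libraries, the widest separation of the 10 genes.

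Muc6, the mucin of gastric and duodenal glands, ranged from 60.0 to 140.3 CPM in WT with a median of 77.6. It was 3.00, 2.37, 5.99 and 4.06 CPM in AireKO, a log2 change of -4.42 ± 0.27 (adjusted p = 7.49e-13). Its standard error was the smallest of the 9 genes that fell. Muc5b, the mucin of airway secretory cells and glands, ranged from 35.5 to 93.5 CPM in WT and was 4.28, 3.16, 2.00 and 2.03 CPM in AireKO. Its log2 change was -4.15 ± 1.03 (adjusted p = 0.00125).

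The 3 trefoil genes were lower in level and fell as well. Tff3, the trefoil factor of intestinal goblet cells, ranged from 10.6 to 28.3 CPM in WT with a median of 12.6, and was 0, 0, 0.666 and 1.22 CPM in AireKO (log2 change -5.03 ± 0.66, adjusted p = 3.85e-07). Tff2, made by mucous neck and gland cells of the stomach, ranged from 6.68 to 18.7 CPM in WT and was 1.28, 0.395, 1.66 and 2.43 CPM in AireKO (-2.91 ± 0.48, adjusted p = 9.35e-06). Tff1, the trefoil factor of the gastric surface, ranged from 2.50 to 5.31 CPM in WT. It had 2 counts in all AireKO mTEChi libraries together against 71 in WT, and its ratio was 19.6 with an exact counting interval of 5.24 to 165 (adjusted p = 4.45e-05). Agr2 ranged from 2.43 to 8.84 CPM in WT and was 0.428, 0, 1.33 and 0.406 CPM in AireKO (-3.02 ± 0.95, adjusted p = 0.0086), and with age as a term it was at -2.28 (adjusted p = 0.0567) and was not called. Spdef had the smallest fall of the 9, from 3.04 to 8.68 CPM in WT to 1.71, 0.395, 1.33 and 2.43 CPM in AireKO (-2.12 ± 0.46, adjusted p = 0.00028).

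Fcgbp was 4171, 3869.6, 3213 and 3683 CPM in AireKO mTEChi against 2424 to 3260.0 CPM in WT, with a median of 2508. The groups overlapped in CPM, and the log2 change of 0.46 ± 0.18 (adjusted p = 0.0289) was under 2-fold. In counts, AireKO held 9080 to 9796 for Fcgbp, in libraries of 2528049 to 3106026 reads, and WT held 5211 to 8216, in libraries of 1602125 to 3231079 reads. With the presence of mitochondrial counts as a further term in the fit, 4 of the 10 genes were called in place of 9: Muc6 (-3.83), Muc5b (-3.95) and Spdef (-2.22) were called lower and Fcgbp higher (1.33), and Tff2 changed sign (0.91, adjusted p = 0.579). Muc5ac (-6.06, adjusted p = 0.0932) and Agr2 (-3.31, adjusted p = 0.138) kept large negative values that did not pass, and Muc2, Tff1 and Tff3 were negative as well. That term can be told from genotype only through mTEClo, where AireKO libraries of both kinds exist. There the libraries with mitochondrial counts were of 5 weeks, at 1883769 and 1639231 reads. Those without were of 6 weeks, at 3272356 and 3938588 reads, so the term cannot be told apart from age and depth. Summed keratinocyte markers also differed, at 181 to 320 CPM in WT and 77.4 to 121 in AireKO, as did summed thymocyte markers at 80.3 to 112 and 41.9 to 54.9 CPM. Summed cortical TEC markers were higher in AireKO, at 363 to 430 CPM against 289 to 336 in WT. The part of all these markers in the changes was not tested.

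In adult mTEClo, 4 of the 10 genes fell in AireKO, where 8.31% of the genes tested were called, 3.7% lower and 4.61% higher. Muc5ac ranged from 7.16 to 199.5 CPM in the 8 WT libraries, with a median of 62.2, and was 3.27, 5.60, 3.00 and 1.96 CPM in AireKO (log2 change -4.60 ± 0.86, adjusted p = 0.000233). The groups did not overlap, although the lowest WT libraries came within 2-fold of the highest AireKO library. Tff1 ranged from 0.521 to 5.62 CPM in WT and had a single count in AireKO (ratio 17.9, interval 3.04 to 726, adjusted p = 0.00406). Tff3 ranged from 0.624 to 7.84 CPM in WT and had a single count in AireKO (ratio 30.2, interval 5.24 to 1209, adjusted p = 0.00567). Muc2 had a median of 2.2 CPM in WT, with 1 library at 99.5, and was 1.64, 0.622, 1.80 and 0.736 CPM in AireKO. Its log2 change of -3.51 ± 1.26 (adjusted p = 0.0402) became -2.17 (adjusted p = 0.0701) without that library. The call was lost in 6 of 12 fits without 1 library (adjusted p up to 0.111), including each without an AireKO library. It was also lost with sex or age as a term, in libraries with mitochondrial counts and at 5 weeks alone.

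The other 6 genes were not called in adult mTEClo. Muc5b ranged from 16.7 to 618 CPM in WT and was 95.9, 67.8, 9.60 and 131 CPM in AireKO (log2 difference -1.44 ± 0.59, adjusted p = 0.0745). AireKO mTEClo thus still held a Muc5b level that overlapped WT. Muc6 was 9.33 to 15.9 CPM in WT and 5.64 to 12.5 in AireKO (-0.58 ± 0.26, adjusted p = 0.109), Spdef 5.07 to 15.9 and 3.82 to 8.71 (-0.43 ± 0.32, adjusted p = 0.351), and Agr2 0 to 15.2 and 0.545 to 3.11 (-1.68 ± 0.69, adjusted p = 0.0749). Tff2 was near the detection limit in both groups, with 21 counts in all WT libraries and 2 in all AireKO libraries. Fcgbp was 1987 to 3904 CPM in WT and 3958, 4296, 2585 and 1939 CPM in AireKO (0.24 ± 0.17, adjusted p = 0.338). Summed keratinocyte markers were 147 to 373 CPM in WT mTEClo and 64.1 to 131 in AireKO. Summed cortical TEC markers were 356 to 447 CPM in WT mTEClo and 497 to 582 in AireKO. The part of both in these changes was not tested.

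The difference between the AireKO effects in mTEChi and mTEClo was tested with an interaction term, which called 13.8% of genes, 11.6% lower and 2.23% higher. Muc6 fell further in mTEChi than in mTEClo, by 3.84 ± 0.40 on the log2 scale (adjusted p = 7.50e-08). Spdef did so by 1.69 ± 0.57 (adjusted p = 0.0303), but its call was lost with the replicate number as a block (-0.99, adjusted p = 0.313) and in 5 of 23 fits without 1 library (adjusted p up to 0.092). The same-numbered WT libraries in that block differed in sex or age between the fractions. For the other 8 genes the difference did not pass the test, Muc5b being at -2.71 ± 1.27 (adjusted p = 0.121). At 5 weeks alone 5 of the 10 passed, Muc5ac (-4.62), Muc5b (-4.00) and Agr2 (-5.13) besides Muc6 (-4.93) and Spdef (-2.90).

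**Figure D2:**
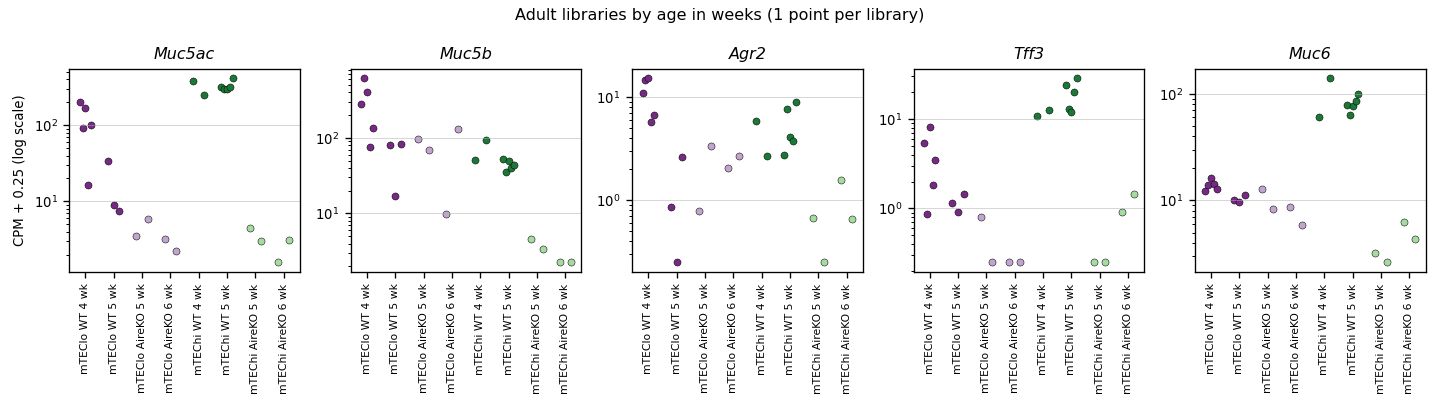
Levels of Muc5ac, Muc5b, Agr2, Tff3 and Muc6 in adult libraries by fraction, genotype and age in weeks, in CPM. WT mTEClo libraries of 5 weeks lie below most of those of 4 weeks for Muc5ac, Muc5b and Agr2, while Muc6 is at 9.33 to 15.9 CPM at both ages.

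Adult WT mTEClo libraries differed with age. Muc5ac was 199.5, 90.5, 168, 16.4 and 101 CPM in the 5 libraries of 4 weeks and 33.9, 8.66 and 7.16 CPM in the 3 of 5 weeks. Agr2 was 10.8, 14.4, 15.2, 5.47 and 6.48 CPM at 4 weeks and 0.610, 0 and 2.39 CPM at 5 weeks. These were among 17 genes called in a comparison of the ages, 0.0826% of those tested, 0.0437% higher and 0.0389% lower at 5 weeks. The comparison was added after the values were seen, so these calls are a description only. Muc5ac had a log2 difference of -2.79 ± 0.49 (adjusted p = 0.0155) and Agr2 one of -3.26 ± 0.59 (adjusted p = 0.0176). Muc5b was 281, 618, 407, 75.0 and 135 CPM at 4 weeks and 79.6, 16.7 and 82.4 CPM at 5 weeks, and did not pass (-2.34 ± 0.56, adjusted p = 0.107). Fitted on the WT mTEClo libraries alone, Agr2 was called and Muc5ac was not (adjusted p = 0.0533). The Muc5ac call was lost without replicate 7 (adjusted p = 0.118) or replicate 8 (adjusted p = 0.134), and the Agr2 call without replicate 6 (adjusted p = 0.153) or replicate 7 (adjusted p = 0.111). Among the other genes called, chosen for mention after their values were seen, were leukocyte genes that were higher at 5 weeks: Ngp (6.55), Camp (4.94), S100a9 (3.08) and S100a8 (2.84), which are neutrophil granule and cytosol proteins, and the integrin Itgb2 (3.05). Their part in the age difference was not tested. Aire itself did not follow this order, at 19.2 to 81.3 CPM at 4 weeks and 72.8 to 128 CPM at 5 weeks. In WT mTEChi, where 0.535% of genes were called (0.51% higher and 0.0243% lower), edgeR called 0 of the 10 genes between the same ages, and 0 had an unadjusted p under 0.05. Muc5ac was there at 0.10 ± 0.43 (adjusted p = 0.948).

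Since adult AireKO mice were 5 or 6 weeks old, the mTEClo comparison was repeated at 5 weeks alone, with 3 WT and 2 AireKO libraries. By edgeR, 0 of the 10 genes were then called. Muc5ac was at -1.93 (adjusted p = 0.063) and Muc5b at 0.45. With age as a term, Tff3 alone was called (-4.20, adjusted p = 0.042).

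Between the fractions of adult WT mice, 6 of the 10 genes were higher in mTEChi and Muc5b was lower, against a background of 36% of genes called, 23.8% higher and 12.3% lower. Muc6 rose in all mTEChi libraries above all mTEClo libraries, from a median of 12.2 CPM to 77.6 (log2 difference 2.79 ± 0.17, adjusted p = 1.46e-14). Tff2 had the largest difference, from a median of 0.617 CPM to 10.5 (3.66 ± 0.39, adjusted p = 2.07e-09). Muc5ac (2.11 ± 0.41, adjusted p = 4.55e-05) and Tff3 (2.63 ± 0.36, adjusted p = 2.26e-07) were also separated without overlap.

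Muc2 was higher in mTEChi by 3.03 ± 0.53 (adjusted p = 1.08e-05) and by 4.37 (adjusted p = 4.29e-11) without the mTEClo library that stood at 99.5 CPM. Tff1 was higher by 1.12 ± 0.37 (adjusted p = 0.00882), and fell under 2-fold without mTEClo WT replicate 4 (0.94) or replicate 7 (0.997). Muc5b was the reverse of its neighbours on chromosome 7, with a median of 108 CPM in mTEClo and 49.7 in mTEChi (-2.03 ± 0.50, adjusted p = 0.000726). At 5 weeks alone its difference was -0.47 (adjusted p = 0.14), while Agr2, at -0.39 ± 0.48 (adjusted p = 0.48) over all ages, was higher in mTEChi by 2.28 (adjusted p = 0.0027). Spdef was at -0.41 ± 0.27 (adjusted p = 0.169), and Fcgbp at 0.00 ± 0.15 (adjusted p = 0.986).

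Between the fractions of adult AireKO mice 35.3% of genes were called, 17.8% higher in mTEChi and 17.5% lower. Muc5b (-4.74 ± 1.05, adjusted p = 0.000315), Spdef (-2.11 ± 0.50, adjusted p = 0.000621) and Muc6 (-1.05 ± 0.37, adjusted p = 0.0158) were lower in mTEChi. Tff2 was higher in mTEChi (2.69 ± 1.05, adjusted p = 0.03), on 15 counts against 2, a call lost in 5 of 8 fits without 1 library (2.15 to 5.10 over the 8) and at 5 weeks alone (0.46, adjusted p = 0.815). The Muc6 call was close to the 2-fold limit. It was lost with RLE size factors (-0.99), with a mitochondrial term (-0.80), in libraries without mitochondrial counts (-0.81) and in 3 of 8 fits without 1 library (-1.38 to -0.86 over the 8). Same-numbered libraries of these groups deviated together. With the replicate number as a block and only these libraries, 3 of the 10 genes passed the filter on low counts, and Muc5b (-4.58, adjusted p = 1.03e-07) and Muc6 (-1.08, adjusted p = 0.0177) were called.

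**Figure D3:**
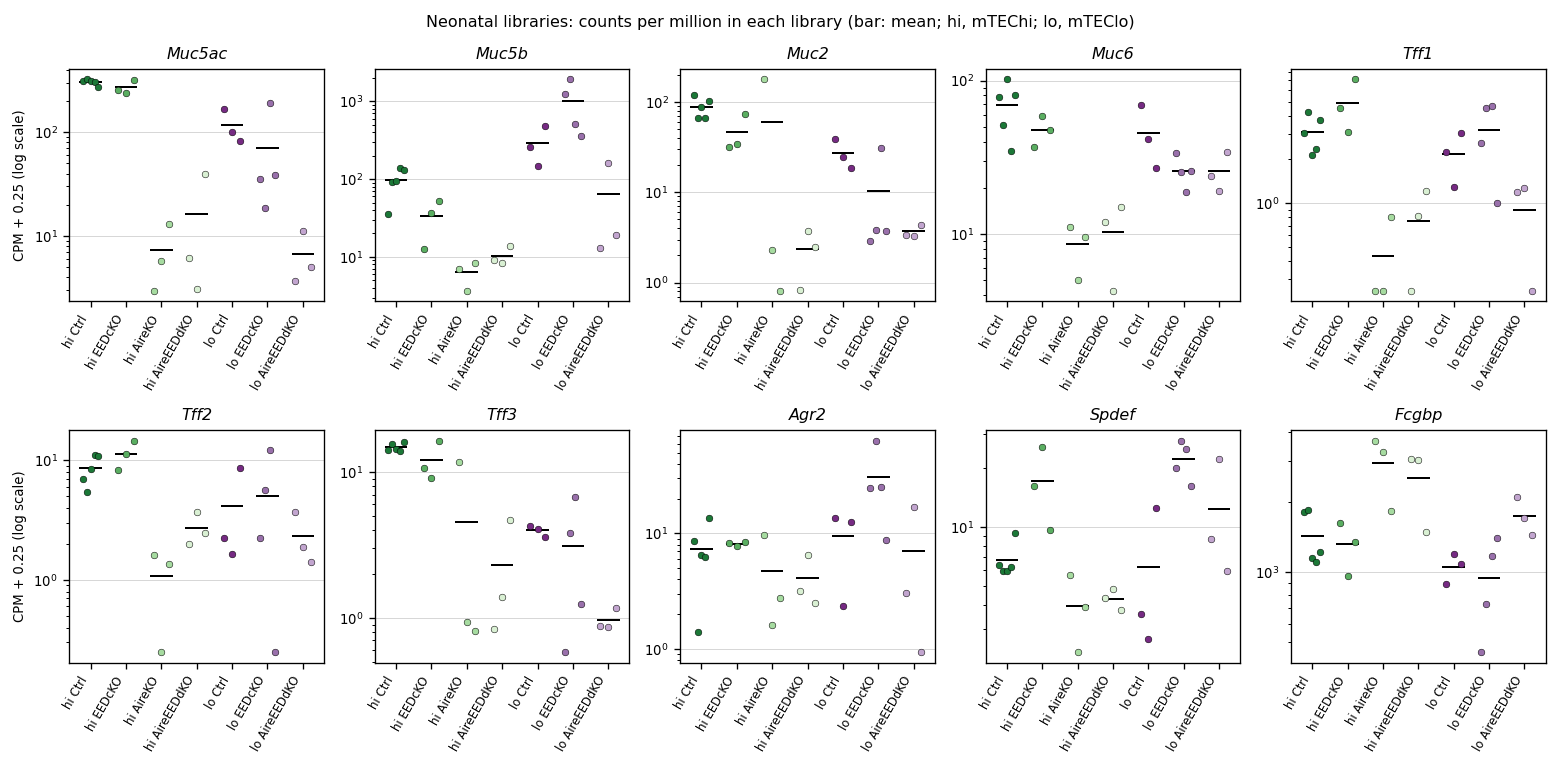
Level of each of the 10 genes in each neonatal library, in CPM plus 0.25 on a log axis, with points for libraries and a bar for the group mean. In mTEChi, Muc5ac is at 273 to 323 CPM in Ctrl and at 2.72 to 12.9 CPM in AireKO, and 1 AireKO library is at 179 CPM of Muc2.

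Neonatal mTEChi showed a similar direction for most genes. Adult and neonatal samples were in separate tables, so their levels are set side by side without a test. Muc5ac was 309, 323, 308, 306 and 273 CPM in Ctrl and 2.72, 5.46 and 12.9 CPM in AireKO (log2 change -5.19 ± 0.75, adjusted p = 3.79e-05). The Ctrl level of 304 ± 18.3 CPM was close to the 327 ± 55.5 CPM of adult WT mTEChi. In this comparison 16.4% of 20196 genes were called, 12.8% lower and 3.56% higher, and of the 10 genes 6 fell and Fcgbp was called higher. Summed keratinocyte markers were 204 to 275 CPM in Ctrl and 99.7 to 132 in AireKO, and their part in these changes was not tested.

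Muc6 was 77.5, 51.0, 101, 34.6 and 80.6 CPM in Ctrl and 10.9, 4.78 and 9.25 CPM in AireKO (-3.02 ± 0.42, adjusted p = 2.57e-05). Muc5b was 35.1, 92.2, 94.4, 137 and 131 CPM in Ctrl and 6.79, 3.42 and 8.13 CPM in AireKO (-3.91 ± 0.91, adjusted p = 0.00277). Neither gene overlapped between the groups. Tff1 had 42 counts in Ctrl and 2 in AireKO (ratio 8.91, interval 2.32 to 76.0, adjusted p = 0.0167). Tff2 was 5.16 to 10.7 CPM in Ctrl and 1.36, 0 and 1.12 CPM in AireKO (-3.18 ± 0.93, adjusted p = 0.0133). Spdef also did not overlap, at 5.73 to 9.06 CPM in Ctrl and 2.05 to 5.44 in AireKO, but did not pass (-0.84 ± 0.55, adjusted p = 0.264).

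AireKO replicate 1 stood apart for 3 of these genes. Muc2 was 119, 65.9, 87.0, 66.8 and 102 CPM in Ctrl and 179, 2.05 and 0.560 CPM in AireKO, with 179 in replicate 1. Tff3 was 13.9, 15.5, 14.2, 13.6 and 15.8 CPM in Ctrl and 11.6, 0.683 and 0.560 CPM in AireKO. Agr2 was 1.15 to 13.2 CPM in Ctrl and 9.51, 1.37 and 2.52 CPM in AireKO. Aire was 114 CPM in replicate 1 and 44.4 and 51.6 in the other two, and replicate 1 was the pooled library of its group. With replicate 1 included, Muc2 was at -0.62 ± 0.82 (adjusted p = 0.61), Tff3 at -2.02 ± 0.68 (adjusted p = 0.0297) and Agr2 at -0.84 ± 0.89 (adjusted p = 0.512). Without it, Muc2 fell (-6.37, adjusted p = 0.000276), as did Tff3 (-4.5, adjusted p = 0.000857), while Agr2 was at -1.76 (adjusted p = 0.263). At 4 to 6 days alone, with 2 Ctrl and 3 AireKO libraries, Muc5ac (-5.33), Muc5b (-3.36) and Muc6 (-3.01) were called and no other of the 10.

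Fcgbp was 1815, 1852, 1145, 1102 and 1216 CPM in neonatal Ctrl mTEChi and 3677, 3294 and 1839 CPM in AireKO. Its log2 change of 1.04 ± 0.30 (adjusted p = 0.0113) was just past 2-fold. The call was lost in 9 of 10 alternative fits and in 5 of 8 fits without 1 library, with the difference between 0.59 and 1.23 throughout. With age as a term it was 0.60 (adjusted p = 0.0976), and at 4 to 6 days alone 0.59 (adjusted p = 0.256). Fcgbp counts did not keep pace with library size in most groups: between the deepest and the shallowest library of a group its CPM was lower in the deeper one in 10 of 11 groups, by ratios of 0.451 to 0.816. In adult AireKO and neonatal AireEEDdKO mTEChi the count itself was lower in the deepest library, by ratios of 0.991 and 0.882. In neonatal Ctrl mTEChi the shallow libraries were from mice of 6 days and the deep ones from mice of 1 to 3 days. Depth and age cannot be told apart there. Of the 20 most abundant genes, 12 to 20 had lower CPM in the deeper library. At like depths the counts can be set side by side. The AireKO libraries of 1646162 and 1681339 reads held 5411 and 4822 Fcgbp counts, and the Ctrl libraries of 1726637 and 1676830 reads held 3254 and 3233. The AireKO library of 3695066 reads held 6562, and the Ctrl libraries of 3418616, 3590620 and 4025158 reads held 4198, 4208 and 5237. The AireKO counts were thus above the Ctrl counts of like depth, but ages differed. The shallow AireKO libraries were of 4 and 6 days against 6 days in Ctrl. The deep AireKO library was of 4 days against 1 to 3 days in Ctrl, so age and genotype cannot be told apart there.

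**Figure D4:**
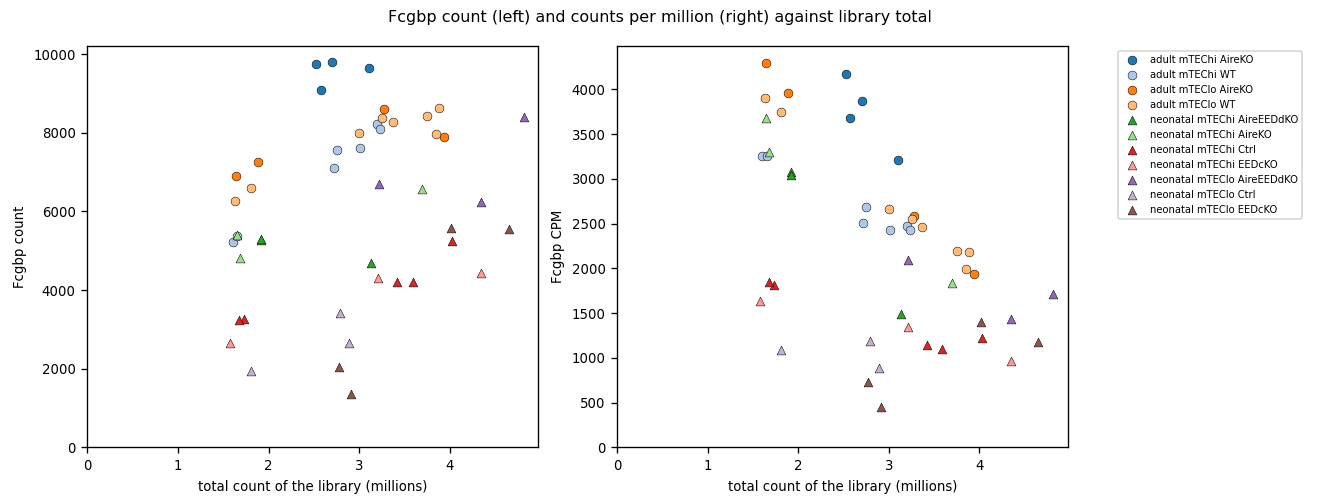
Fcgbp count and Fcgbp CPM of each library against the library's total count, colored by group. Counts mostly rise with depth more slowly than in proportion, but in adult AireKO and neonatal AireEEDdKO mTEChi they are lower in the deepest library. CPM is lower in the deepest than in the shallowest library of 10 of the 11 groups, and at a given depth the neonatal AireKO mTEChi libraries lie above Ctrl. The deep AireKO library there is from older mice than the deep Ctrl libraries.

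In neonatal EEDcKO mTEChi 1 of the 10 genes was called against Ctrl, where 13.9% of genes were called, 8.48% higher and 5.4% lower. Spdef was 6.14, 5.73, 5.73, 6.02 and 9.06 CPM in Ctrl and 16.0, 25.4 and 9.36 CPM in EEDcKO (1.36 ± 0.42, adjusted p = 0.0151). The groups did not overlap. Without EEDcKO replicate 2 the difference was 0.87 (adjusted p = 0.210), and with sex as a term 1.16 (adjusted p = 0.0717). Muc5ac was 254, 241 and 322 CPM in EEDcKO, against 273 to 323 in Ctrl (-0.16 ± 0.51, adjusted p = 0.843). Muc5b was 12.3, 36.0 and 51.8 CPM against 35.1 to 137 (-1.51 ± 0.68, adjusted p = 0.0907). Muc2 was at -0.90 ± 0.81 (adjusted p = 0.415) and Muc6 at -0.53 ± 0.33 (adjusted p = 0.226). The trefoil genes lay between -0.30 and 0.72. Summed mesenchyme markers were 247 to 330 CPM in Ctrl and 493.3 to 774 in EEDcKO, and their part in these values was not tested.

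In neonatal mTEClo, Spdef and Muc5b rose in EEDcKO, where 15.7% of genes were called, 9.51% higher and 6.22% lower. Spdef was 3.35, 2.43 and 12.3 CPM in Ctrl and 19.7, 27.4, 25.0 and 16.0 CPM in EEDcKO (1.99 ± 0.48, adjusted p = 0.00302), without overlap. Muc5b was 256, 146 and 484 CPM in Ctrl and 1228, 1921, 516 and 359 CPM in EEDcKO (1.77 ± 0.65, adjusted p = 0.0408). Leaving out either of the first 2 libraries of either group ended the Muc5b call, at log2 differences of 1.25 to 2.25. The highest Muc5b level of the series, 1921 CPM, was thus in an EEDcKO mTEClo library.

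Agr2 was 13.4, 2.09 and 12.3 CPM in Ctrl mTEClo and 24.4, 63.4, 25.0 and 8.51 CPM in EEDcKO (1.72 ± 0.74, adjusted p = 0.08). Muc5ac was 169, 100.2 and 82.6 CPM in Ctrl and 35.1, 18.5, 189 and 38.8 CPM in EEDcKO (-0.71 ± 0.55, adjusted p = 0.343). Muc2 was 38.9, 24.7 and 18.4 CPM in Ctrl and 2.67, 3.56, 31.1 and 3.50 CPM in EEDcKO (-1.33 ± 0.92, adjusted p = 0.293). EEDcKO replicate 3, at 6 days of age, was the highest EEDcKO library for both Muc5ac and Muc2, and it also had the highest Aire of its group, 309 CPM against 60.1 to 232 in the others. Aire was 322 to 330 CPM in Ctrl mTEClo, above every EEDcKO library, and its part in this comparison was not tested. At 1 to 3 days alone, with 3 Ctrl and 2 EEDcKO libraries, Muc5b (2.38), Agr2 (2.22) and Spdef (2.06) were higher and Muc5ac (-2.20) and Muc2 (-3.22) lower, all called. Summed mesenchyme markers were 131 to 134 CPM in Ctrl mTEClo and 559 to 833 in EEDcKO, and with the cortical markers above they moved with this comparison, and their part in it was not tested.

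The EEDcKO effects in the 2 fractions were compared by an interaction term, which called 1.58% of genes (0.614% higher and 0.97% lower) and, by edgeR, 0 of the 10. Muc5b was the 1 gene of the 10 with an unadjusted p under 0.05, at -3.28 ± 0.94 (adjusted p = 0.0718), and the 1 gene called by DESeq2. At 1 to 3 days alone it was -3.86 and called, as were Muc5ac (2.11) and Muc2 (2.52).

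Loss of both Aire and EED was compared with loss of each alone. In mTEChi without EED, 6 of the 10 genes were lower with the loss of Aire, against 13.3% of genes called, 8.36% lower and 4.99% higher. At 4 to 6 days alone Muc5ac (-3.84) and Muc6 (-1.86) were the only ones called, and fits without 1 library called 3 to 8: 3 without AireEEDdKO replicate 1 or EEDcKO replicate 3 and 8 without EEDcKO replicate 1. Muc5ac was 5.84, 2.86 and 39.1 CPM in AireEEDdKO, against 241 to 322 in EEDcKO (-3.89 ± 0.69, adjusted p = 0.000396). Muc6 was 11.7, 4.01 and 14.6 CPM against 36.9 to 58.4 (-2.18 ± 0.43, adjusted p = 0.000985). Muc2 was 0.584, 3.44 and 2.23 CPM against 31.9 to 73.3 (-4.45 ± 1.36, adjusted p = 0.0213). Tff3 (-2.28 ± 0.75, adjusted p = 0.0305), Tff1 (-2.88 ± 0.81, adjusted p = 0.0134) and Spdef (-2.10 ± 0.54, adjusted p = 0.00765) fell too. Spdef was 4.09, 4.58 and 3.50 CPM in AireEEDdKO, against 9.36 to 25.4 in EEDcKO.

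Muc5b (-1.72 ± 0.90, adjusted p = 0.178), Tff2 (-2.20 ± 0.81, adjusted p = 0.0523) and Agr2 (-1.12 ± 0.97, adjusted p = 0.433) did not pass, and Fcgbp was at 0.95 ± 0.34 (adjusted p = 0.0474), under 2-fold. The interaction term, which compares the loss of Aire with and without EED, called 1.25% of genes (0.807% higher and 0.446% lower) and 0 of the 10 by edgeR or DESeq2. Muc2 was at -3.82 ± 1.63 (adjusted p = 0.237), Muc5ac at 1.30 ± 1.01 (adjusted p = 0.573) and Muc6 at 0.85 ± 0.61 (adjusted p = 0.53). Muc2 was the 1 gene of the 10 with an unadjusted p under 0.05.

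Between AireEEDdKO and AireKO mTEChi, where 9.47% of genes were called, 6.69% higher and 2.78% lower, Muc2 was the only one of the 10 called (-4.73 ± 1.37, adjusted p = 0.0186). The difference rested on AireKO replicate 1, and without it Muc2 was at 1.02 (adjusted p = 0.748). Same-numbered libraries of these groups deviated together, and with the replicate number as a block 0 of the 3 genes that passed the filter were called by edgeR, Muc2 not being among those tested. In mTEClo, AireEEDdKO was lower than EEDcKO for Muc5ac (3.44, 11 and 4.82 CPM, -3.41 ± 0.70, adjusted p = 0.00402) and Muc5b (12.8, 161 and 19.1 CPM, -3.94 ± 0.72, adjusted p = 0.00168), with 5.3% of genes called, 3.45% higher and 1.85% lower. Fitted on these groups alone, neither was called, and 40 genes were called in all.

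Between the neonatal fractions, the pattern of Muc5ac above and Muc5b below in mTEChi was called in Ctrl and in EEDcKO, but for Muc5ac not in AireEEDdKO. In Ctrl, where 20.7% of genes were called, 13.8% higher and 6.92% lower, Muc5ac was higher in mTEChi (1.36 ± 0.54, adjusted p = 0.05), as was Tff3 (1.94 ± 0.64, adjusted p = 0.0202), and Muc5b was lower (-1.56 ± 0.59, adjusted p = 0.0406). The Ctrl call of Muc5ac was lost when any of the 8 libraries was left out (1.23 to 1.74), and that of Muc5b without 5 of the 8 (-0.97 to -1.88). In EEDcKO, with 21.8% called, 14.2% higher and 7.67% lower, Muc5ac (1.92 ± 0.54, adjusted p = 0.00732) and Tff3 (1.96 ± 0.62, adjusted p = 0.0149) were higher. Muc5b was lower by more than in Ctrl (-4.84 ± 0.77, adjusted p = 5.55e-05), a difference that did not pass as described above, and Agr2 was lower (-1.92 ± 0.74, adjusted p = 0.0432). In AireEEDdKO, with 21% called, 10.4% higher and 10.6% lower, Muc5b (-2.62 ± 0.87, adjusted p = 0.02), Muc6 (-1.26 ± 0.43, adjusted p = 0.0242) and Spdef (-1.61 ± 0.54, adjusted p = 0.0215) were lower in mTEChi. Muc5ac was at 1.44 ± 0.81 (adjusted p = 0.164), and at -0.64 (adjusted p = 0.708) without mTEChi AireEEDdKO replicate 3. Without mTEClo AireEEDdKO replicate 2, which held 161 CPM of Muc5b, Muc5b was at -0.60 (adjusted p = 0.595) and Spdef at -0.81 (adjusted p = 0.26).

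**Figure D5:**
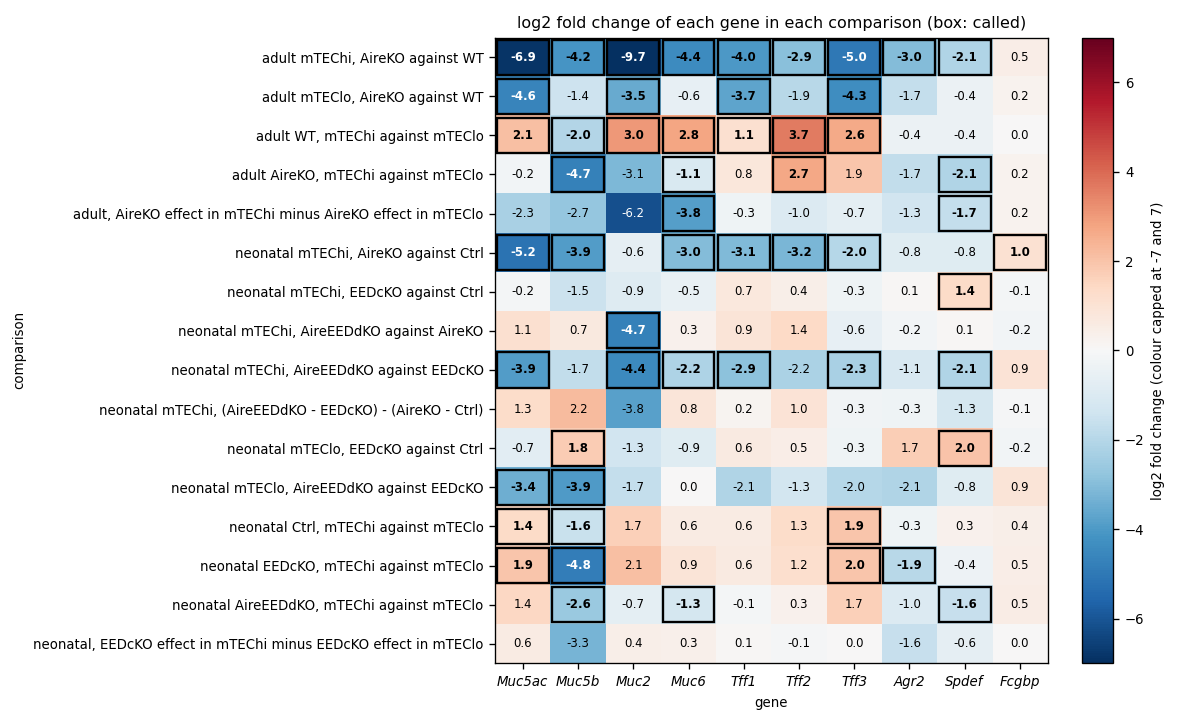
Log2 fold change of each of the 10 genes in each of 16 comparisons, with a box where the gene was called. Muc5ac is boxed as lower in the 5 comparisons that remove Aire within a fraction, and Muc5b is boxed as lower in mTEChi than in mTEClo in all 5 comparisons of the fractions. Several of these calls were lost in alternative fits.

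Across the comparisons, Muc5ac was called lower in each of the 5 that remove Aire within a fraction, and Muc5b was called lower in mTEChi than in mTEClo in each of the 5 of the fractions. Several of these share control libraries, and some calls were lost in fits given above. The Muc5ac call was lost in adult mTEChi with a mitochondrial term. In adult mTEClo it was lost with age as a term or at 5 weeks alone, and in neonatal mTEClo on the compared groups alone. The Muc5b call was lost in adult WT at 5 weeks alone. It was also lost in Ctrl when any 1 of 5 libraries was left out, and in AireEEDdKO without mTEClo replicate 2. Muc6 was called lower in mTEChi than in mTEClo in both comparisons of fractions without Aire, a call lost in adults as given above and in neonates in 2 of 6 fits without 1 library (-0.93 to -1.70). With Aire present it was called higher in mTEChi in adults and did not pass in neonatal Ctrl (0.58 ± 0.33, adjusted p = 0.164) or, for its fold, in EEDcKO (0.92 ± 0.34, adjusted p = 0.0376).

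Other genes of mucus-making tissue were read from lists. In adult mTEChi, secreted mucous products other than the 10 genes fell in AireKO, 8 of 9 tested, with a median log2 change of -5.58 against -0.05 over all genes. Of all genes tested there, 18.3% were called lower and 5.09% higher. Among them were Zg16 (-8.36), a lectin of intestinal goblet cell granules, Muc19 (-7.61), a salivary mucin, Retnlb (-6.28) and Bpifb1 (-6.14). Of 8 membrane-bound mucins tested, 5 fell, led by Muc16 (-10.48), Muc15 (-3.0), Muc13 (-2.02) and Muc20 (-1.82). Of 7 stomach genes, 4 fell: the gastrokines Gkn1 (-7.39) and Gkn2 (-7.27), the pepsinogen Pgc (-6.20) and the tight junction gene Cldn18 (-3.73).

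Enzymes and factors that build mucins in goblet cells were read in the same comparison, where 18.3% of all genes were called lower and 5.09% higher. Of 16 O-glycosylation and sulfation genes, Gcnt3 (-3.97) and Galnt5 (-1.49) fell and St6galnac1 (1.32) rose, and the median was -0.05. Of 10 genes of folding and granule release, Creb3l1 (-2.91), Sytl2 (-2.58) and Rab27a (-1.72) fell. Of 6 goblet transcription factors tested, Foxa2 (-1.90) fell. For the glycosylation genes and the transcription factors, the share that fell was thus no higher than over all genes.

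In adult mTEClo, 4 of 9 secreted products fell, Muc19 (-4.91), Bpifb1 (-2.66), Ltf (-2.0) and Clca1 (-1.91), and none of 7 stomach genes was called. There 3.7% of all genes were called lower in AireKO and 4.61% higher. Between the adult WT fractions all 7 stomach genes tested were higher in mTEChi, with a median of 5.49 against 0.01 over all genes, and 5 of 9 secreted products were, led by Reg4 (5.66) and Zg16 (5.02). Over all genes, 23.8% were called higher in mTEChi and 12.3% lower. In neonatal mTEChi, all 8 secreted products tested fell in AireKO (median -2.86, all genes 0.03), Bpifb1 (-4.45) and Muc19 (-3.47) most. Foxa2 fell too (-3.31), the 1 called of 7 goblet transcription factors tested, as did 3 of 6 stomach genes, led by Gkn1 (-7.64). In that comparison 12.8% of all genes were called lower and 3.56% higher.

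In neonatal EEDcKO mTEClo, where Spdef and Muc5b rose, 3 of 7 goblet transcription factors rose as well, Foxa2 (2.67), Foxa1 (1.42) and Klf4 (1.03), with a list median of 1.03 against -0.01 over all genes. Over all genes, 9.51% were called higher there and 6.22% lower. The mucin sulfotransferase Chst5 (3.85), the airway gene Scgb3a2 (3.84) and Ltf (2.54) rose, and Zg16 (-3.77) and Muc3 (-3.01) fell. Chst5 was also higher in EEDcKO mTEChi (2.84).

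Genes beside the mucin cluster were read as well. Of all genes tested, 18.3% were called lower in adult AireKO mTEChi and 12.8% in neonatal AireKO mTEChi. Of 17 other genes tested within 250 kb of its ends, 1 fell in adult AireKO mTEChi, the kinase gene Brsk2 (-1.09), and none was called in neonatal AireKO mTEChi. Beside the trefoil cluster, 4 of 9 fell in adult AireKO mTEChi, Glp1r (-7.73), Umodl1 (-3.55), Rsph1 (-3.13) and Dnah8 (-2.35), and 3 of 9 in the neonatal comparison.

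The genes with the most similar pattern were found by the correlation of log2(CPM + 1) over the 23 adult and the 24 neonatal libraries among 15377 genes, with the 10 genes left out of the ranking, taking the lower of both values. Libraries share depth, group and genotype, and these values are a description. Muc5ac was nearest to Efcab6 (r = 0.915 and 0.907 in adults and neonates) and Ces1c (0.923 and 0.885). Tff3 was nearest to the pepsinogen Pgc (0.888 and 0.884), Spdef to Ephb2 (0.825 and 0.799) and Fcgbp to the MHC class I gene H2-D1 (0.910 and 0.840). Outside the 10 genes Agr2 was nearest to Muc20, at 0.584 and 0.618, the weakest of the best matches, whereas within them it was nearer to Spdef (0.714 and 0.725). Muc5b matched Agr2 (0.715 and 0.702) and Spdef (0.749 and 0.586) more closely than it matched Muc5ac, its neighbour in the genome (0.514 and 0.420), and Fcgbp ran against Muc5b in neonates (-0.823) and less so in adults (-0.268).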

How the data were processed

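The authors deposited raw gene counts in an adult and a neonatal table, made from reads trimmed with fastp 0.20.0, aligned to mm10 with STAR 2.7.3a, filtered on mapping quality with SAMtools 1.9, cleared of duplicates with Picard 2.21.1 and counted without strand by htseq-count 0.11.2. Reads in repeats, such as mucin tandem repeats, may be lost by the quality filter, and duplicate removal limits the counts of very abundant genes. The authors' edgeR-normalised tables were not used. Each table was filtered with filterByExpr and scaled by TMM in edgeR 4.0.16 (R 4.3.3, limma 3.58.1), then fitted by quasi-likelihood with a mean for each group over all its libraries. Counting error at depths of 1578579 to 4817418 is given as exact 95% intervals.

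The 10 genes, the other gene lists, the tests and the alternatives were chosen with earlier results of these data known. All 10 genes are named in every group. Of other lists, at most 4 called genes with the largest change are named, and the genes of most similar pattern are those whose smaller correlation is largest. Alternatives covered normalization, filters, DESeq2 1.42.0, sex, age and mitochondrial terms, fits on the compared groups alone, a replicate block and leaving out each library. The comparisons of 4 with 5 weeks and the fits within 1 age range were added after the data were seen. Replicate numbers were taken to pair libraries where every pair's deviations correlated above 0.1. This held for adult AireKO fractions (0.139 to 0.222), neonatal AireEEDdKO against AireKO mTEChi (0.108 to 0.213) and AireEEDdKO fractions (0.291 to 0.416). Elsewhere the numbers were not taken as pairs, and same-numbered libraries could differ in sex or age. The fit was tested on simulated data. RPKM used exon lengths of GENCODE M21. The adult and neonatal tables were not compared by a test. Promoters of the other 5 genes and protein sequences were not used here.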

Additional observations from a re-analysis of the deposited data

Results flagged for a closer look

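The search took each gene in each group of 4 to 10 libraries with enough counts. Of 42 such sets of 1 gene in 1 group, 5 held a library far from the others, and chance alone would give about 2.1 at 1 in 20. In neonatal EEDcKO mTEClo, replicate 3 was the highest for both Muc5ac, at 189 CPM, and Muc2, at 31.1 CPM. Muc2 was highest in adult WT mTEClo replicate 1, at 99.5 CPM. Muc5b was highest in adult WT mTEChi replicate 2, at 93.5 CPM. Spdef was highest in neonatal Ctrl mTEChi replicate 5, at 9.06 CPM.

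The AireKO effects in adult mTEChi and mTEClo differed for 2 genes by the interaction term. Muc6 differed by -3.84 on the log2 scale and Spdef by -1.69, both with the larger fall in mTEChi. The Spdef difference was not called with the replicate number as a block (-0.99, adjusted p = 0.313), nor in 5 of 23 fits without 1 library (adjusted p up to 0.092). That block joined WT libraries that differed in sex or age.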

How the results depend on the processing

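The 57 calls described for the 10 genes were refitted 1153 times in all, and 996 refits kept direction and call, 155 kept the direction and lost the call, and 2 changed direction. The reversals were Tff2 in adult mTEChi with a mitochondrial term (0.91) and Muc2 in neonatal AireEEDdKO against AireKO mTEChi without AireKO replicate 1 (1.02), where leaving out another library gave values down to -5.40. The number of the 10 genes called moved as follows. With a mitochondrial term it was 4 in adult mTEChi for AireKO. In adult mTEClo for AireKO it was 1 with age as a term, 0 at 5 weeks alone and 2 in libraries with mitochondrial counts. The interaction of AireKO with fraction gave 4 by DESeq2 and 5 at 5 weeks alone. Adult AireKO fractions gave 2 in libraries without mitochondrial counts. At 4 to 6 days alone, neonatal mTEChi gave 3 for AireKO, 0 for EEDcKO, 0 for AireEEDdKO against AireKO and 2 against EEDcKO, mTEClo gave 1 for AireEEDdKO against EEDcKO, and EEDcKO fractions gave 1. At 1 to 3 days alone, mTEClo gave 5 for EEDcKO, Ctrl fractions 5, EEDcKO fractions 7 and the interaction of EEDcKO with fraction 3. For EEDcKO in mTEChi it was 2 without a filter, 0 with sex and 2 with age as a term. DESeq2 gave 1 for EEDcKO in mTEClo, 1 for Ctrl fractions and 1 for the interaction of EEDcKO with fraction. Without a filter the interaction of Aire with EED gave 1, that of EEDcKO with fraction 1 and the age comparison in WT mTEClo 4. Age as a term gave 1 for Ctrl fractions and 1 for the interaction of EEDcKO with fraction. The causes were not tested.

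Fits on the compared groups alone tested fewer of the 10 genes. They called 1 for AireKO in adult mTEClo, 2 for adult AireKO fractions, 2 for EEDcKO in mTEChi, 0 for AireEEDdKO against AireKO, 1 for EEDcKO in mTEClo, 0 for AireEEDdKO against EEDcKO in mTEClo, 5 for Ctrl fractions, 1 for AireEEDdKO fractions, 1 for the interaction of EEDcKO with fraction and 1 for age in WT mTEClo. With the replicate number as a block as well, whether or not the numbers were taken as pairs, the fits called 2 for AireKO in adult mTEClo, 2 for adult AireKO fractions, 1 for the interaction of AireKO with fraction (Spdef being at -0.99), 3 for EEDcKO in mTEChi, 0 for AireEEDdKO against AireKO, 1 for EEDcKO in mTEClo and 0 for AireEEDdKO against EEDcKO in mTEClo. Elsewhere the block gave 6 for AireKO in adult mTEChi, 7 for adult WT fractions, 5 for AireKO and 7 for AireEEDdKO against EEDcKO in neonatal mTEChi, 4 and 3 for EEDcKO and AireEEDdKO fractions and 0 for both neonatal interactions.

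Leaving out 1 library at a time gave 9 to 9 calls for AireKO in adult mTEChi, 3 to 6 in adult mTEClo, 6 to 7 for adult WT fractions, 2 to 4 for AireKO fractions and 1 to 3 for their interaction. In neonatal mTEChi it gave 3 to 7 for AireKO, 0 to 1 for EEDcKO, 0 to 1 for AireEEDdKO against AireKO, 3 to 8 against EEDcKO and 0 to 0 for the interaction. In neonatal mTEClo it gave 1 to 4 for EEDcKO and 2 to 5 for AireEEDdKO against EEDcKO. Between fractions it gave 0 to 2 for Ctrl mice, 2 to 6 for EEDcKO mice, 1 to 3 for AireEEDdKO mice and 0 to 1 for their interaction, and age gave 0 to 3 in WT mTEClo and 0 to 0 in WT mTEChi. Some genes, such as Tff1 and Agr2, had few counts, and the part of depth in their calls was not tested.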
